A study of Rattus norvegicus with 82 samples.

Results

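The family described here is the platelet-derived growth factor (PDGF) system, taken as its 4 ligand genes (*Pdgfa*, *Pdgfb*, *Pdgfc* and *Pdgfd*) and its 2 receptor genes (*Pdgfra* and *Pdgfrb*). The members were taken by gene symbol, and the choice was made with earlier results of these data known. All 6 were present among the 17337 genes of the table, and all 6 passed the filter on low counts. Both ventricles, right (RV) and left (LV), of 41 rats had been digested and enriched for cardiomyocytes. The rats were offspring of Wistar Kyoto mothers and Lewis fathers, and each gave 1 RNA-seq library per ventricle after ribosomal RNA depletion, 82 in all. Every rat underwent surgery and none carried a genetic change. A clip around the pulmonary artery (PAB) loaded the RV, a clip around the aorta (AOB) loaded the LV, and sham-operated rats carried none. Group names end in H at the stage of compensated hypertrophy and in F once the heart was failing. At 11 weeks of age and 7 weeks after surgery there were 7 Sham-H rats (3 males), 6 PAB-H rats (4 males) and 6 AOB-H rats (2 males). At 31 weeks of age and 26 weeks after surgery there were 9 Sham-F rats (4 males) and 7 AOB-F rats (4 males). The 6 PAB-F rats (4 males) were 28 weeks old and 22 weeks past surgery by the labels, so they were younger than the Sham-F rats they are compared with, and banding and this age gap cannot be told apart there. All these ages are the labels'. The study's text gives somewhat higher ages for every group. With the weeks after surgery, its ages place surgery at the same age in all groups, which the labels' ages do not. Which source is right is not stated.

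PDGFs are dimeric growth factors that bind receptor tyrosine kinases at the cell surface, which pair up, phosphorylate each other and recruit adaptor proteins and kinases inside the cell. PDGF-A and PDGF-C act mainly through the alpha receptor, PDGF-B through both receptors, and PDGF-D mainly through the beta receptor. PDGF-C and PDGF-D are secreted in a latent form from which a protease must cut a domain, whereas PDGF-A and PDGF-B are processed inside the cell before release. In the heart, PDGF-B from endothelial cells is known for recruiting pericytes and smooth muscle cells (mural cells), which carry the beta receptor, and the alpha receptor is a widely used marker of cardiac fibroblasts.

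The 250 bases before the annotated start are printed here for 3 members, from RefSeq on the rat build GRCr8, because the results turn on them. *Pdgfb* and *Pdgfc* are the ligands that differed between the ventricles in opposite directions, and *Pdgfra* is the member that the study picked among its PAB-regulated genes. By gene ID, 5 of the 6 members matched the promoter table, all but *Pdgfrb*. Capitals mark matches, on either strand, to any of 4 motifs, the TATA box (TATAAA), the GC box (GGGCGG), the CCAAT box (CCAAT) and the AP-1 site (TGANTCA). The N in the last stands for any base. No match overlapped another.
Pdgfb, chr7:113438344-113438593, minus strand: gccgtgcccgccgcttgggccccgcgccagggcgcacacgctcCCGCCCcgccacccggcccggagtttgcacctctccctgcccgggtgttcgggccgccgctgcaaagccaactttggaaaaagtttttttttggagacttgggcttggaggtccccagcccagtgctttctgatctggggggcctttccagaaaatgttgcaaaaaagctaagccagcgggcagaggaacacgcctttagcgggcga
Pdgfc, chr2:168614918-168615167, plus strand: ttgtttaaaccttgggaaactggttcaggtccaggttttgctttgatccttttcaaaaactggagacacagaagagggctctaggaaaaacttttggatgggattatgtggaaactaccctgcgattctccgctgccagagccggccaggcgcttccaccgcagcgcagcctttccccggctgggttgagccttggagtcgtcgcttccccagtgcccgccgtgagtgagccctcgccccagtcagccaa
Pdgfra, chr14:33408517-33408766, minus strand: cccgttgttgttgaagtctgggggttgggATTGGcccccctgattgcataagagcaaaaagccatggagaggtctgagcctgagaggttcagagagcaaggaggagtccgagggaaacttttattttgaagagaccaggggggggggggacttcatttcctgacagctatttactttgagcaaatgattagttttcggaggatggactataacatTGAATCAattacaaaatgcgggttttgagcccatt

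The *Pdgfb* window held 1 GC box, read on the other strand, and a GC content of 63.6%. In the *Pdgfra* window there were 1 CCAAT box, also on the other strand, and 1 match to the AP-1 letters, at a GC content of 47.2%. That match reads TGAATCA, so it rests on the open base. The *Pdgfc* window held none of the 4 and had a GC content of 56%. *Pdgfa* and *Pdgfd*, not printed, each held 1 GC box, at GC contents of 60.8% and 61.6%. Of 33469 rat promoter windows of the same length, 12.9% held a TATA box, 30.5% a GC box, 34% a CCAAT box and 6.34% an AP-1 site by these letters, and their median GC content was 51.2%. These matches are letters in a window and carry no measurement from the hearts.

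Counts on genes ranged from 6675287 to 19665439 per library. Values for single genes are normalized counts, that is raw counts divided by the effective library size of edgeR (TMM) and scaled to its mean of 13279120. A list of 9 ventricular cardiomyocyte genes was detected in every library and held 5.65% to 16.1% of the counts, against 0.0175% to 0.278% for a list of 10 fibroblast genes, 0.0321% to 0.182% for 8 mural genes and 0.0532% to 0.388% for 8 endothelial genes. The fibroblast gene *Col1a2* was at 0 in 71 libraries, but no other gene of that list was at 0 in any library. Its zeros are therefore no measure of the fibroblast list as a whole. No PDGF gene is in any of these lists. The LV libraries of the F stage stood apart. Their summed endothelial markers had medians of 2840 to 2960 CPM (counts scaled to the same effective library size) in the 3 groups, against 1240 to 1380 CPM in the LV at the H stage and 641 to 1170 CPM in the 6 RV groups. Their cardiomyocyte list had medians of 89400 to 91900 CPM, against 129000 to 134000 CPM in the LV at the H stage. A few single libraries also stood apart and are named beside the results that rest on them. In such RNA from many cells, fewer cells of a type and less RNA per cell cannot be told apart.

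Per length, the ligand *Pdgfa* stood highest of the 6. Its median over the 82 libraries was 55.5 FPKM (fragments per kilobase of gene, scaled to library size, 30.4 to 101.6), above that of 88.7% of the tested genes. *Pdgfb* followed at a median of 32.6 FPKM and had the widest span, from 13.8 to 150.5. Among the receptors, *Pdgfrb* had a median of 16.3 FPKM (8.21 to 62.4) and *Pdgfra* one of 5.32 FPKM (2.31 to 23.9). The latent ligands *Pdgfc* and *Pdgfd* were lowest, with medians of 4.36 FPKM (1.08 to 7.70) and 3.82 FPKM (1.10 to 8.19), and rested on few reads, 21 to 154 and 18 to 142 raw counts per library. The receptors and *Pdgfb* rested on 201 to 5810 raw counts, and *Pdgfa* on 360 to 1919.

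**Figure D1:**
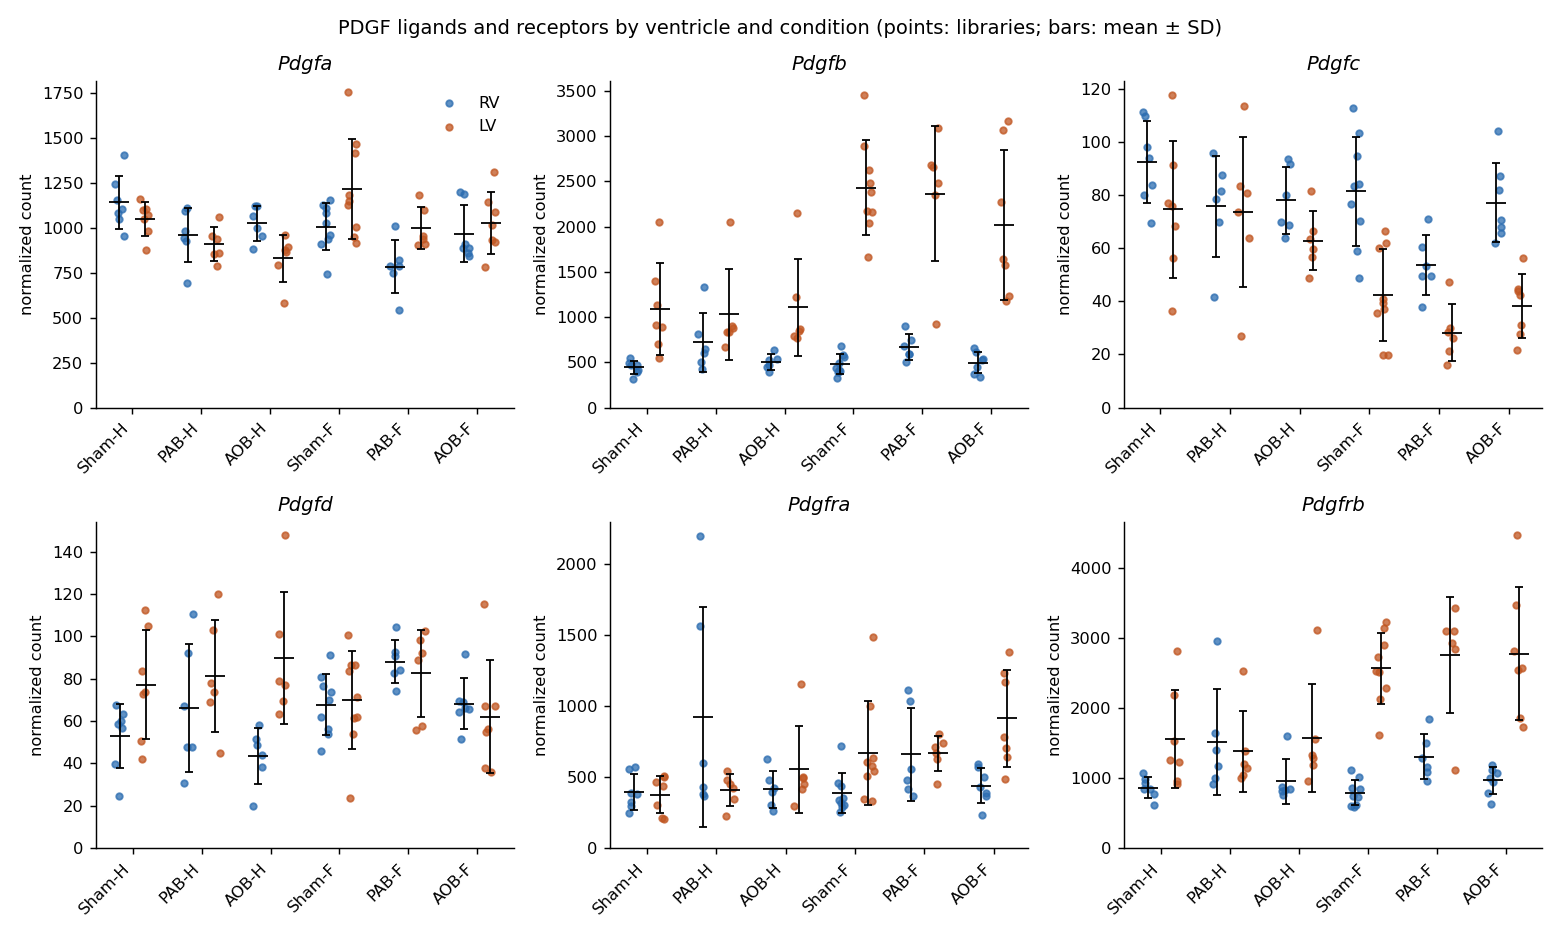
Normalized counts of the 6 PDGF genes (vertical axes, from 0) in the 12 groups, with each point 1 library, the RV and the LV in separate colours and bars giving mean ± SD. *Pdgfb* and *Pdgfrb* are highest in the 3 LV groups of the F stage, *Pdgfc* is lowest there, and *Pdgfa* and *Pdgfd* vary least between groups.

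The order of the 12 groups differed from gene to gene, as the plot of normalized counts by group shows. The highest group mean was 5.49 times the lowest for *Pdgfb*, 3.5 times for *Pdgfrb*, 3.28 times for *Pdgfc*, 2.45 times for *Pdgfra*, 2.07 times for *Pdgfd* and 1.55 times for *Pdgfa*. For *Pdgfb*, the 3 LV groups of the F stage led, with means of 2430 ± 523 (SD, n = 9) in LV Sham-F, 2363 ± 747 (SD, n = 6) in LV PAB-F and 2020 ± 830 (SD, n = 7) in LV AOB-F. The LV groups of the H stage came next at 1029 to 1107, and all RV groups lay below, from 443 in RV Sham-H to 721 in RV PAB-H. For *Pdgfc* the order ran the other way, from 92.4 ± 15.4 (SD, n = 7) in RV Sham-H down to 42.4 ± 17.3 (SD, n = 9) in LV Sham-F, 38.3 ± 11.9 (SD, n = 7) in LV AOB-F and 28.2 ± 10.7 (SD, n = 6) in LV PAB-F. Neighbouring groups in these orders overlapped in all 11 steps for each of the 6 genes. The means of neighbours were closer than the larger of their SDs in all 11 steps for *Pdgfa*, *Pdgfc*, *Pdgfd* and *Pdgfra*, and in 9 of 11 for *Pdgfb* and *Pdgfrb*.

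How the ventricles differ without banding was asked in the sham groups, first in the young animals. In Sham-H, 2 of the 6 members were lower in the RV than in the LV at an adjusted p under 0.05, where 21% of all tested genes passed in either direction and 11.4% were lower. The ligand *Pdgfb* ran from 318 to 542 normalized counts in the RV (median 467) and from 546 to 2046 in the LV (median 909), so the libraries of the ventricles did not overlap (4.59% of all genes did not). Its log2 fold change of RV against LV was -1.30 (SE 0.25, adjusted p = 0.000171, edgeR's quasi-likelihood test with Benjamini-Hochberg adjustment), and *Pdgfb* was lower in the RV in 7 of 7 animals. The receptor *Pdgfrb* ran from 611 to 1069 in the RV (median 847) and from 919 to 2812 in the LV (median 1254). These groups overlapped, the log2 fold change was -0.85 (SE 0.24, adjusted p = 0.0092), and the RV was lower in 7 of 7 animals. *Pdgfa*, *Pdgfc*, *Pdgfd* and *Pdgfra* did not pass, with log2 fold changes of 0.12, 0.31, -0.53 and 0.07.

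The *Pdgfrb* difference in Sham-H leaned on single LV libraries. LV Sham-H libraries 4 and 5 had *Pdgfrb* at 2812 and 2194 and summed endothelial markers at 2680 and 1790 CPM. Without library 4 the log2 fold change of *Pdgfrb* was -0.62 and no longer passed, and without both it was -0.44, whereas *Pdgfb* still passed without both at -0.91 (adjusted p = 0.0403, the highest of its alternatives, which began at 4.27e-07). In the same comparison 5 of 8 endothelial and 4 of 8 mural markers were lower in the RV and none was higher, with medians of -1.06 and -0.60 on the log2 scale. Their part in the result was not tested.

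In the older Sham-F animals, 5 of the 6 members differed between the ventricles, at a background of 74.3% of all tested genes. *Pdgfb* ran from 325 to 681 in the RV (median 436) and from 1664 to 3452 in the LV (median 2377), with no overlap and a log2 fold change of -2.35 (SE 0.22, adjusted p = 1.11e-14). *Pdgfrb* ran from 591 to 1124 in the RV (median 752) and from 1621 to 3234 in the LV (median 2531), again without overlap, at -1.69 (SE 0.21, adjusted p = 1.01e-10). In each of the 9 animals both genes were lower in the RV, and 41.8% of all genes did not overlap. *Pdgfra* had RV values of 255 to 722 (median 336) and LV values of 330 to 1488 (median 577). These overlapped, and *Pdgfra* was lower in the RV in 8 of 9 animals at -0.79 (SE 0.28, adjusted p = 0.0086). This value rested on LV Sham-F library 3, the one at 1488, without which it was -0.52 and did not pass.

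The latent ligand *Pdgfc* went the opposite way in Sham-F. It ran from 48.9 to 112.7 in the RV (median 83.5) and from 19.7 to 66.7 in the LV (median 39.5). The ranges overlapped, yet the RV was higher in 9 of 9 animals, at a log2 fold change of 0.95 (SE 0.21, adjusted p = 3.06e-05). *Pdgfa* was lower in the RV by a small amount, -0.27 (SE 0.10, adjusted p = 0.0151), with RV values of 746 to 1158 (median 1030) inside and below LV values of 917 to 1758 (median 1148). That call was lost without any 1 of LV Sham-F libraries 1, 2 and 7 or RV Sham-F libraries 2, 3 and 5. The values then ran from -0.22 to -0.16. Without the filter on low counts the call was lost as well, at -0.22 (adjusted p = 0.0792). *Pdgfd* did not pass at -0.04 (SE 0.22). Beside these values, 6 of 8 endothelial markers, 6 of 8 mural markers and 7 of 9 tested fibroblast markers were also lower in the RV of Sham-F, with medians of -1.84, -1.28 and -1.61, and 1 endothelial marker was higher. Of 9 cardiomyocyte genes, 5 were higher and 2 lower. Their part in the PDGF differences was not tested.

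**Figure D2:**
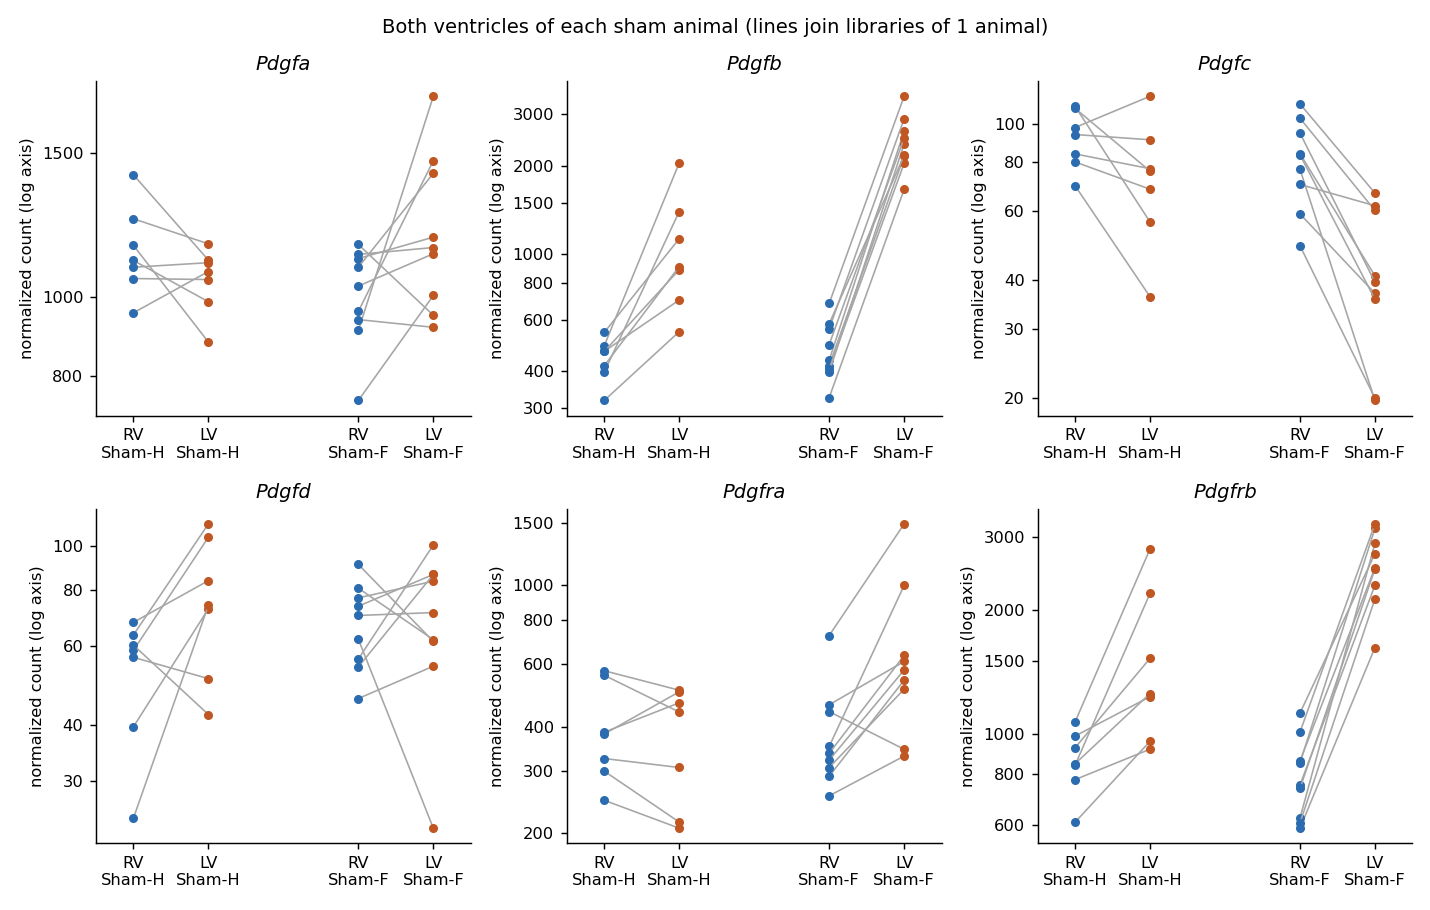
Normalized counts of the 6 PDGF genes (log axes) in the RV and LV libraries of the Sham-H and Sham-F animals, with lines joining the libraries of 1 animal. For *Pdgfb* every line rises from RV to LV in both groups, and for *Pdgfc* all 9 lines of Sham-F fall.

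The sham groups of both stages, compared within a ventricle, differ in age. They are separate animals, and by the study's text samples were collected at different times. Age, time after surgery and collection cannot be told apart here, and the age effect below stands for all of them. In the LV, 4 of 6 members differed between Sham-F and Sham-H, where 57.4% of all genes did. *Pdgfb* was higher in the older animals by 1.16 on the log2 scale (SE 0.23, adjusted p = 2.98e-05), *Pdgfra* by 0.83 (SE 0.30, adjusted p = 0.0151) and *Pdgfrb* by 0.72 (SE 0.23, adjusted p = 0.0050). *Pdgfc* was lower, at -0.82 (SE 0.22, adjusted p = 0.000986). The libraries of the young and older groups overlapped for each of these 4 genes, and without LV Sham-F library 3 the *Pdgfra* value was 0.58 and did not pass. In the RV none of the 6 passed by edgeR or by DESeq2, and 0 had an unadjusted p under 0.05 (5.03% of all genes), with log2 fold changes between -0.18 and 0.35, where 0.0502% of all genes passed.

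The difference between the ventricles in this age effect was tested directly and passed for 3 members, against 41.6% of all genes. The age effect in the RV minus that in the LV was -1.05 on the log2 scale for *Pdgfb* (SE 0.32, adjusted p = 0.0077), -0.84 for *Pdgfrb* (SE 0.32, adjusted p = 0.0270) and -0.40 for *Pdgfa* (SE 0.16, adjusted p = 0.0359). *Pdgfc* at 0.64 (SE 0.30, adjusted p = 0.0827) and *Pdgfra* at -0.86 (SE 0.42, adjusted p = 0.0907) did not pass, but both did when the animal was a block, at 0.63 (adjusted p = 0.0242) and -0.81 (adjusted p = 0.0442). The *Pdgfrb* call was lost without LV Sham-H library 1, 2 or 7, at -0.79 to -0.75, and the *Pdgfa* call without any 1 of 12 libraries (LV Sham-H 5 and 7, RV Sham-H 2, 3 and 5, LV Sham-F 1, 2 and 7, RV Sham-F 2, 3, 5 and 7), at -0.38 to -0.30. The *Pdgfa* call was also lost without the filter on low counts, at -0.35 (adjusted p = 0.0996). Without LV Sham-H libraries 4 and 5 together it was lost too, at -0.36 (adjusted p = 0.0647). There, *Pdgfc* (0.85) and *Pdgfra* (-1.07) passed. *Pdgfc* also passed without LV Sham-H library 4, RV Sham-F library 1 or LV Sham-F library 3, 7 or 8, at 0.73 to 0.79. *Pdgfra* did so without RV Sham-F library 3, at -1.01. In the LV, 57.4% of all genes differed between Sham-F and Sham-H in either direction. There, 6 of 8 mural, 4 of 8 endothelial and 5 of 9 tested fibroblast markers were higher in Sham-F, and 1 endothelial marker was lower. Of 9 cardiomyocyte genes, 5 were lower and 2 higher. None of these lists held a called gene in the RV, where 0.0502% of all genes passed. Their part in the age effect was not tested.

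The RV is the loaded chamber under pulmonary banding. At the hypertrophic stage 2 of 6 members were called, where 4.5% of all genes were, and both were receptors and higher (3.91% of all genes). *Pdgfra*, the alpha receptor, ran from 248 to 574 in RV Sham-H (median 381) and from 366 to 2196 in RV PAB-H (median 516). Most PAB-H libraries lay within or near the sham range, and 2 of the 6 lay far above it. The log2 fold change was 1.22 (SE 0.33, adjusted p = 0.0212), 2.33-fold, and *Pdgfra* was the 1 member that met the study's criteria (absolute log2 fold change over 1, unadjusted p of at most 0.01, mean over 50), met by 1.82% of all genes. The study picked *Pdgfra* on these samples, so this is no independent evidence of its direction. *Pdgfrb*, the beta receptor, ran from 611 to 1069 in RV Sham-H (median 847) and from 914 to 2958 in RV PAB-H (median 1287). The groups overlapped, and the log2 fold change was 0.81 (SE 0.25, adjusted p = 0.0418), 1.75-fold.

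Both receptor calls depended on 2 RV PAB-H libraries. Library 2 held *Pdgfra* at 2196, *Pdgfrb* at 2958 and summed fibroblast markers at 2780 CPM, and library 1 held *Pdgfra* at 1566 and fibroblast markers at 1430 CPM. The other 4 libraries had *Pdgfra* at 366 to 601 and fibroblast markers at 406 to 578 CPM. Without library 2 the log2 fold changes were 0.76 for *Pdgfra* and 0.51 for *Pdgfrb*, without library 1 they were 1.01 and 0.79, and without both they were 0.16 and 0.37, and in each case neither passed. The *Pdgfrb* call was also lost without any 1 of RV Sham-H libraries 1, 2, 3, 5, 6 and 7, at 0.76 to 0.84. Over all alternatives the adjusted p ran from 0.00634 to 0.967 for *Pdgfra* and from 0.0163 to 0.845 for *Pdgfrb*. In the same comparison all 9 tested fibroblast markers were higher (median log2 fold change 1.37, and 9 of the 10 listed were picked by the study on these samples), with 1 of 8 mural and 2 of 8 endothelial markers. Their part in the receptor values was not tested.

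Among the ligands in RV PAB-H, *Pdgfb* was at 427 to 1330 (median 626) against 318 to 542 (median 467) in RV Sham-H. The groups overlapped and the log2 fold change of 0.71 (SE 0.25, adjusted p = 0.0828) did not pass. It passed without RV PAB-H library 6, at 0.82, and was lower without library 2, at 0.44 (adjusted p = 0.568), and without libraries 1 and 2, at 0.30 (adjusted p = 0.897). *Pdgfa* had a log2 fold change of -0.26 (SE 0.12, adjusted p = 0.2225), *Pdgfc* of -0.29 (SE 0.24) and *Pdgfd* of 0.32 (SE 0.26), none of them passing.

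In the failing RV of PAB-F, 2 of 6 members were called against RV Sham-F, where 11.1% of all genes were, 1 higher (7.66% of all genes) and 1 lower (3.42%). *Pdgfrb* ran from 591 to 1124 in RV Sham-F (median 752) and from 954 to 1844 in RV PAB-F (median 1226), at a log2 fold change of 0.71 (SE 0.23, adjusted p = 0.0334), 1.64-fold. *Pdgfa* ran from 746 to 1158 in RV Sham-F (median 1030) and from 546 to 1010 in RV PAB-F (median 790), at -0.36 (SE 0.12, adjusted p = 0.0358). In both cases the upper range of one group overlapped the lower range of the other. No member met the study's criteria in PAB-F, met by 1.9% of all genes.

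The other members had values in PAB-F that did not pass. *Pdgfc* was at 37.8 to 71.1 (median 51.6) against 48.9 to 112.7 (median 83.5), with a log2 fold change of -0.60 (SE 0.23, adjusted p = 0.0738). *Pdgfra* was at 366 to 1115 (median 520) against 255 to 722 (median 336), at 0.77 (SE 0.31, adjusted p = 0.0836). The groups overlapped for both genes. *Pdgfb* was at 499 to 906 (median 637) against 325 to 681 (median 436), at 0.49 (SE 0.24, adjusted p = 0.168), and *Pdgfd* at 74.2 to 104.2 (median 87.4) against 45.8 to 91.1 (median 70.1), at 0.38 (SE 0.24, adjusted p = 0.301).

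Calls in PAB-F moved with single libraries. RV PAB-F library 1 combined the lowest *Pdgfa* value of its group (546) with the highest *Pdgfra* and *Pdgfrb* (1115 and 1844) and fibroblast markers at 1800 CPM, and without it the log2 fold changes were -0.28 for *Pdgfa* and 0.59 for *Pdgfrb*, neither passing. The *Pdgfa* call was lost as well without RV Sham-F library 4, 6 or 8 or RV PAB-F library 2 or 5, at -0.36 to -0.34, and the *Pdgfrb* call without RV Sham-F library 5, 6, 7, 8 or 9 or RV PAB-F library 3, at 0.67 to 0.70. Conversely, *Pdgfra* passed without RV Sham-F library 3 (0.93) or RV PAB-F library 4 (0.89), and *Pdgfc* without RV Sham-F library 1 (-0.68) or RV PAB-F library 6 (-0.70). A fit to these 2 groups alone called 5 of the 6 members. Fibroblast markers were higher for 6 of 9 tested (median 1.23), macrophage markers for 3 of 8, endothelial markers for 2 of 8 and mural markers for 1 of 8, and their part in these values was not tested.

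In the LV under aortic banding no member passed at either stage. At the H stage, where 0.0167% of all genes passed, 0 of 6 members did by edgeR and by DESeq2, and 1 had an unadjusted p under 0.05 (20% of all genes). This was *Pdgfa*, at 585 to 963 in LV AOB-H (median 872.5) against 880 to 1160 in LV Sham-H (median 1073), with a log2 fold change of -0.34 (SE 0.12, adjusted p = 0.140). The groups overlapped at their edges. *Pdgfra* was at 0.55 (SE 0.33, adjusted p = 0.333), and at 0.21 without LV AOB-H library 6, which held it at 1160 against 298 to 504 in the others. *Pdgfb* and *Pdgfrb* were at 0.02 and 0.01 with 95% intervals of -0.48 to 0.52 and -0.48 to 0.50.

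At the F stage of aortic banding 12.9% of all genes passed, and again 0 of 6 members did by edgeR and by DESeq2, with 1 at an unadjusted p under 0.05 (28.7% of all genes). *Pdgfa* was at 780 to 1314 in LV AOB-F (median 1016) against 917 to 1758 in LV Sham-F (median 1148), at -0.24 (SE 0.11, adjusted p = 0.132). Without LV AOB-F library 4 it passed at -0.31. *Pdgfra* was at 487 to 1381 (median 783) against 330 to 1488 (median 577), at 0.45 (SE 0.29, adjusted p = 0.307). The groups overlapped for both genes. *Pdgfb* was at -0.27 and *Pdgfrb* at 0.12, with 95% intervals of -0.72 to 0.18 and -0.33 to 0.56. Macrophage markers were higher for 5 of 8 in this comparison, and fibroblast markers for 0 of 9.

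**Figure D3:**
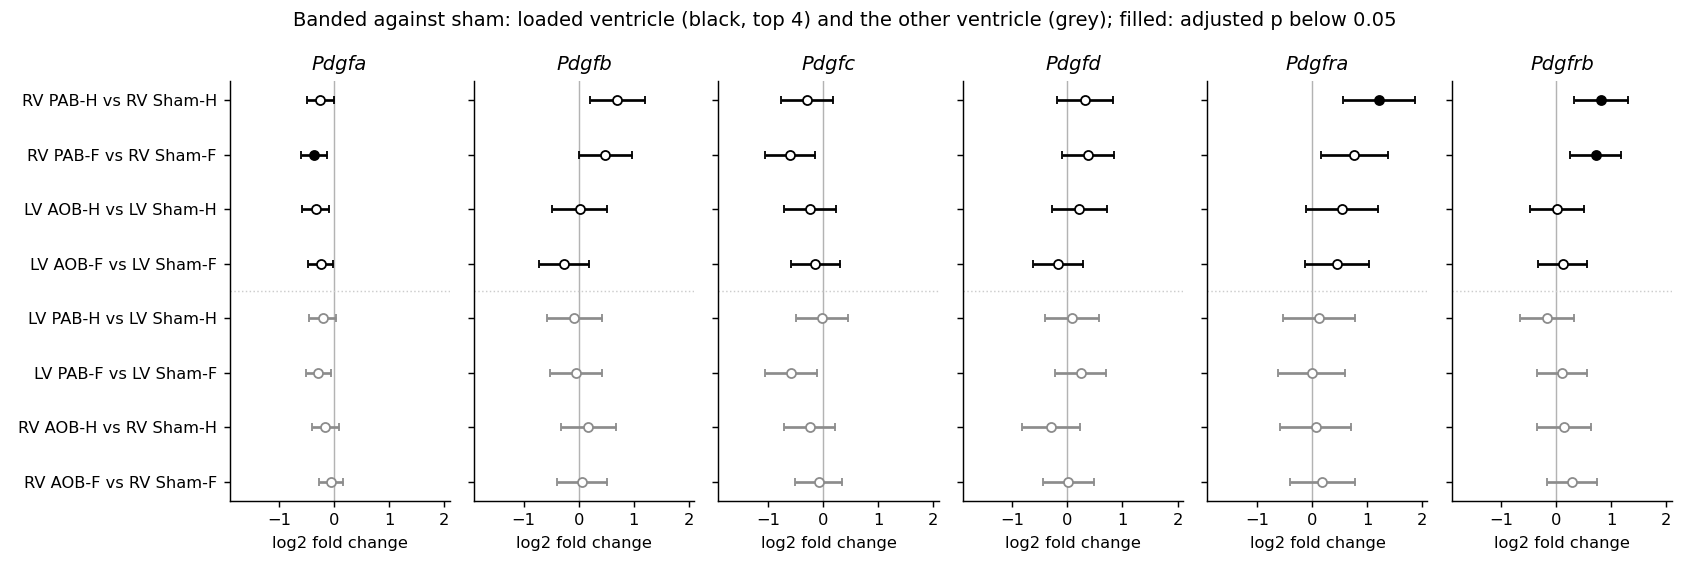
Log2 fold change of each PDGF gene in 8 comparisons of banded with sham animals (horizontal axes), with the loaded ventricle in black above the dotted line and the other ventricle in grey below it, and bars giving 95% intervals. Filled points, *Pdgfra* and *Pdgfrb* in RV PAB-H and *Pdgfa* and *Pdgfrb* in RV PAB-F, passed an adjusted p of 0.05.

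The ventricle on the other side of the load was compared with the same sham groups. In LV PAB-H, LV PAB-F and RV AOB-H, 0 of 6 members passed by edgeR, against 0% of all genes in each, and in RV AOB-F 0 of 6 passed against 0.0669%. DESeq2 also called 0 members in these 4 comparisons. At an unadjusted p under 0.05 there were 0 members in LV PAB-H (2.55% of all genes), RV AOB-H (1.43%) and RV AOB-F (4.32%), and 2 in LV PAB-F (3.8%), where *Pdgfa* had a log2 fold change of -0.29 (SE 0.12) and *Pdgfc* of -0.58 (SE 0.24), both with an adjusted p of 1.0 after rounding. The receptors lay between -0.17 and 0.28 in these 4 comparisons.

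Whether the response to pulmonary banding differed between RV and LV was tested as a difference of differences. At the H stage the RV response exceeded the LV response by 1.10 for *Pdgfra* (95% interval 0.18 to 2.02, adjusted p = 0.444), by 0.98 for *Pdgfrb* (0.28 to 1.67, adjusted p = 0.422) and by 0.79 for *Pdgfb* (0.08 to 1.5, adjusted p = 0.482). None of the 6 passed by edgeR or DESeq2, 3 had an unadjusted p under 0.05 (9.24% of all genes), and 0% of all genes passed. Without RV PAB-H libraries 1 and 2 the differences were 0.03, 0.53 and 0.37. At the F stage the same genes gave 0.78, 0.61 and 0.53, with 0 of 6 passing (0.351% of all genes) and 0 at an unadjusted p under 0.05 (12.9% of all genes). The response to aortic banding did not differ at the threshold between LV and RV for any member at either stage (0% of all genes at both), and neither did the response at the F stage from that at the H stage in the loaded ventricle (0% of all genes in the RV under PAB and in the LV under AOB). At an unadjusted p under 0.05 there were 0 members in each of these 4 contrasts, where 4.83% and 9.71% of all genes were for the ventricles under AOB at the H and F stages and 1.48% and 9.6% for the stages under PAB and AOB, and DESeq2 called 0.

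Between the ventricles of banded animals, the *Pdgfb* difference passed the test in 3 of 4 groups. *Pdgfb* was lower in the RV in PAB-F (log2 fold change -1.82, SE 0.27, adjusted p = 1.27e-07), in AOB-H (-1.14, SE 0.27, adjusted p = 0.0023) and in AOB-F (-2.02, SE 0.25, adjusted p = 3.18e-10), and the RV and LV libraries did not overlap in any of the 3. In PAB-H the value was -0.51 (SE 0.26, adjusted p = 0.462), with RV libraries at 427 to 1330 and LV libraries at 672 to 2046. Taken animal by animal, *Pdgfb* was lower in the RV in all 41 rats, the banded and the sham-operated alike. The smallest gap of an animal was -0.12 on the log2 scale, in PAB-H, and the widest -2.59, in Sham-F. The share of all genes with such a count of animals was not computed, here or for the other counts of animals.

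*Pdgfrb* was called lower in the RV in PAB-F (-1.08, SE 0.26, adjusted p = 0.000244) and AOB-F (-1.52, SE 0.24, adjusted p = 1.26e-07). In AOB-H it was at -0.72 (SE 0.26, adjusted p = 0.0728) and passed with the animal as a block, at -0.66 (adjusted p = 0.0034), and also without LV AOB-H library 2 (-0.83) or RV AOB-H library 6 (-0.93). Without LV AOB-H library 6 it was -0.41 (adjusted p = 0.568) and without library 6 of both ventricles -0.61 (adjusted p = 0.202). In PAB-H it was at 0.13 (SE 0.26), with 3 of 6 animals lower in the RV. *Pdgfra* was called in AOB-F alone of these 4 groups, at -1.05 (SE 0.31, adjusted p = 0.0027) and lower in the RV in 7 of 7 animals. In PAB-H its value was 1.17 (SE 0.34, adjusted p = 0.134), or 0.10 without RV PAB-H libraries 1 and 2.

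The ligand *Pdgfc* was higher in the RV in PAB-F (0.93, SE 0.26, adjusted p = 0.0014) and in AOB-F (1.01, SE 0.23, adjusted p = 0.000124), in 6 of 6 and 7 of 7 animals. In PAB-H and AOB-H it was at 0.04 and 0.31 and did not pass. *Pdgfd* was called in AOB-H, at 19.99 to 57.95 in the RV (median 46.3) against 63.6 to 147.7 in the LV (median 77.9), a log2 fold change of -1.04 (SE 0.27, adjusted p = 0.0068) without overlap. *Pdgfa* was called in PAB-F at -0.35 (SE 0.13, adjusted p = 0.0151), lower in the RV in 6 of 6 animals, and lost this without RV PAB-F library 1 (-0.26) or LV PAB-F library 4 (-0.29).

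Counted together, 0 of 6 members passed between the ventricles in PAB-H (0.125% of all genes, with 1 member at an unadjusted p under 0.05, as 10.9% of all genes were, and 0 called by DESeq2), 4 in PAB-F (61.1%), 2 in AOB-H (7.98%) and 4 in AOB-F (67.1%). The share of all genes without overlap was 23.2% in PAB-F, 3.71% in AOB-H and 30.3% in AOB-F. LV AOB-H library 6, with *Pdgfb* at 2148, *Pdgfrb* at 3112 and endothelial markers at 3780 CPM, bore on AOB-H. Without it *Pdgfb* was at -0.84 and *Pdgfd* at -0.85 and neither passed, whereas without library 6 of both ventricles both passed, at -0.92 (adjusted p = 0.0318) and -0.94 (adjusted p = 0.0394). Over the alternatives the adjusted p in AOB-H ran from 1.45e-05 to 0.0660 for *Pdgfb* and from 0.00278 to 0.0817 for *Pdgfd*. Endothelial markers were lower in the RV of AOB-H for 7 of 8. In PAB-F, 6 of 8 endothelial, 6 of 8 mural and 4 of 9 tested fibroblast markers were lower in the RV, with 1 endothelial and 1 fibroblast marker higher. In AOB-F, 7 of 8 endothelial, 6 of 8 mural, 7 of 9 tested fibroblast and 7 of 8 macrophage markers were lower and none was higher. The part of these markers in the differences between the ventricles was not tested.

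Setting the receptors against each other within a library gives a quantity that library scaling cannot move. The log2 ratio of *Pdgfra* to *Pdgfrb* counts was -1.17 ± 0.25 (SD, n = 7) in RV Sham-H and -2.02 ± 0.41 (SD, n = 7) in LV Sham-H, with libraries from -1.51 to -0.83 and from -2.47 to -1.43. The RV thus held more *Pdgfra* per *Pdgfrb*, with some overlap. In Sham-F the ratios were -1.08 ± 0.20 (SD, n = 9) and -2.06 ± 0.58 (SD, n = 9). Over all 6 conditions the RV means lay between -1.21 and -0.98 and the LV means between -2.06 and -1.53, so each RV mean was above each LV mean. Pulmonary banding gave RV values of -0.98 ± 0.58 (SD, n = 6) in PAB-H and -1.08 ± 0.40 (SD, n = 6) in PAB-F, which differ from their shams by less than the spread of the libraries. In the LV the means were higher than in the shams, at -1.53 ± 0.12 (SD, n = 6) in AOB-H and -1.63 ± 0.44 (SD, n = 7) in AOB-F. They were -1.72 ± 0.57 (SD, n = 6) in LV PAB-H and -1.98 ± 0.34 (SD, n = 6) in LV PAB-F. The LV AOB-H libraries, from -1.69 to -1.38, overlapped those of LV Sham-H. For the ligands, the log2 ratio of *Pdgfb* to *Pdgfa* was -1.38 ± 0.33 (SD, n = 7) in RV Sham-H, -0.50 ± 0.80 (SD, n = 6) in RV PAB-H, -1.10 ± 0.39 (SD, n = 9) in RV Sham-F and -0.23 ± 0.47 (SD, n = 6) in RV PAB-F, and in the LV it was -0.07 ± 0.66 (SD, n = 7) in Sham-H and 0.999 ± 0.263 (SD, n = 9) in Sham-F. These ratios are descriptions and were not tested.

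**Figure D4:**
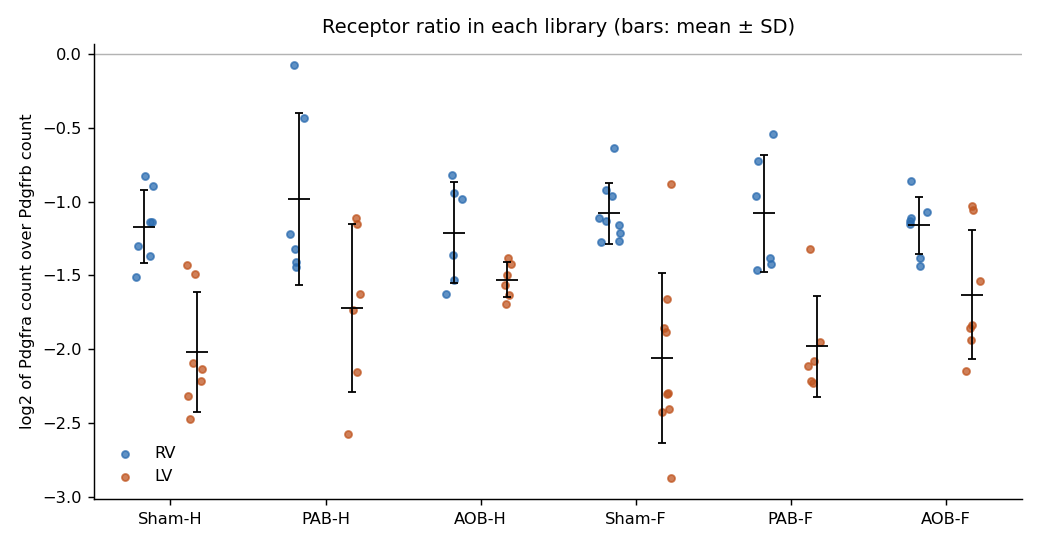
Log2 ratio of *Pdgfra* to *Pdgfrb* counts (vertical axis, gene length not taken into account) in each library of the 6 conditions, with the RV and the LV in separate colours and bars giving mean ± SD. The 6 RV means lie between -1.21 and -0.98 and the 6 LV means between -2.06 and -1.53.

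Male and female rats were compared in a fit over all 82 libraries (42 from males) that also held the 12 group means. Of the members, 2 of 6 were called, both higher in males, against 17.2% of all genes in either direction and 9% higher in males. *Pdgfra* ran from 207 to 2196 in males (median 530) and from 215 to 1159 in females (median 427), a log2 difference of 0.41 (SE 0.13, adjusted p = 0.0194). *Pdgfd* ran from 43.9 to 119.9 in males (median 72.4) and from 19.99 to 147.7 in females (median 61.2), a difference of 0.31 (SE 0.10, adjusted p = 0.0193). The sexes overlapped widely in both genes. The male values of *Pdgfra* include RV PAB-H libraries 1 and 2 (1566 and 2196) and LV Sham-F library 3 (1488). No library was left out of this fit, so how far the calls rest on single libraries was not tested. *Pdgfrb* and *Pdgfb* were at 0.17 and 0.20 and did not pass. Both libraries of an animal entered this fit without a block, so its p-values treat them as separate. The tested fibroblast markers were higher in males for 5 of 9, at a median of 0.47, and their part in the *Pdgfra* value was not tested.

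The proteins that act on PDGFs and downstream of their receptors were followed with lists of 66 genes, of which 64 were tested. In RV PAB-H 6 were higher and 1 lower, 10.9% of the 64 against 4.5% of all genes. In RV PAB-F 4 were higher and 7 lower (17.2% against 11.1%), and in LV AOB-F 10 were higher and 2 lower (18.8% against 12.9%). In LV AOB-H 0 passed by edgeR, and 17 had an unadjusted p under 0.05 (26.6% against 20% of all genes). The median log2 fold change over the lists was 0.04, 0.01, 0.03 and 0.10, and that over all tested genes 0.00, 0.02, 0.01 and 0.04. The 4 proteases that process PDGFs include *Plat*, the tissue plasminogen activator, which can release active PDGF-C. It was higher in RV PAB-H (0.71, SE 0.21, adjusted p = 0.0350) and RV PAB-F (0.67, SE 0.20, adjusted p = 0.0179). *Plau*, the urokinase, was higher in LV AOB-F (1.75, SE 0.33, adjusted p = 0.00024). Of the 4 extracellular partners, *Lrp1*, a large endocytic receptor that associates with the beta receptor, was higher in RV PAB-H (1.33, SE 0.33, adjusted p = 0.0155) and is, like *Figf* below, one of the genes the study picked on these samples.

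Among 11 tested relatives of the family, *Figf* (the older symbol of *Vegfd*, a lymphatic growth factor) was higher in RV PAB-H (1.77, SE 0.34, adjusted p = 0.00168), RV PAB-F (1.20, SE 0.31, adjusted p = 0.00676) and LV AOB-F (0.84, SE 0.29, adjusted p = 0.0430). *Flt4*, which encodes a receptor for that factor, was higher in RV PAB-H (0.90, SE 0.28, adjusted p = 0.0454) and RV PAB-F (1.09, SE 0.26, adjusted p = 0.00348). *Flt1*, a receptor for VEGF-A, was higher in RV PAB-H (0.78, SE 0.23, adjusted p = 0.0358). *Csf1r*, the macrophage growth factor receptor, was higher in RV PAB-F (0.90, SE 0.30, adjusted p = 0.0360) and LV AOB-F (0.89, SE 0.27, adjusted p = 0.0224), the comparisons in which 3 and 5 of 8 macrophage markers were higher.

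Downstream of the receptors, of 32 adaptors and effectors, 0 passed in RV PAB-H by edgeR (7 at an unadjusted p under 0.05, as 20.6% of all genes were). In RV PAB-F 4 of the 32 were lower, where 11.1% of all genes passed in either direction and 3.42% were lower. In LV AOB-F 2 were higher and 2 lower, where 12.9% of all genes passed. Of 9 tested negative regulators, the phosphatase *Ptprj*, which acts on PDGF receptors, was higher in RV PAB-H (0.89, SE 0.22, adjusted p = 0.0143) and LV AOB-F (0.57, SE 0.20, adjusted p = 0.0424), and the phosphatase *Ptpn2* was higher in LV AOB-F (0.91, SE 0.18, adjusted p = 0.000436). Of 4 immediate early genes, which growth factors induce within minutes, *Myc* was higher in LV AOB-F (0.87, SE 0.27, adjusted p = 0.0218). *Fos*, named after its values were seen, was lower in RV PAB-H (-0.57, SE 0.17, adjusted p = 0.0349) and RV PAB-F (-0.67, SE 0.16, adjusted p = 0.00296). *Egr1*, another of the 4, was called lower in RV PAB-F (-0.60), and so was the negative regulator *Spry2* (-0.49). Both were likewise named after their values were seen, and no alternatives are given for them.

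Most of these pathway calls depended on single libraries. In RV PAB-H, all 7 calls were lost without libraries 1 and 2, the ones high in fibroblast markers, where *Figf* was at 1.18 (adjusted p = 0.191), *Lrp1* at 0.43, *Flt4* at 0.51, *Ptprj* at 0.46, *Flt1* at 0.45, *Plat* at 0.40 and *Fos* at -0.53. The 9 fibroblast markers lost their calls there too (median 0.37 instead of 1.37), and over all genes 34 were called rather than 538. With 1 library left out, *Figf* kept its call in RV PAB-H in each of 13 fits. *Lrp1* (0.80) and *Ptprj* (0.63) lost theirs without library 2. *Flt4* did so without any of the 13 but RV PAB-H 5 and 6 (0.65 to 0.94), *Flt1* without RV PAB-H 1 or 2 or RV Sham-H 1, 3, 5, 6 or 7 (0.55 to 0.80), *Plat* without RV PAB-H 1 or 2 or RV Sham-H 1, 2, 3, 5 or 6 (0.52 to 0.71), and *Fos* without RV PAB-H 1, 2 or 3 or RV Sham-H 3, 5, 6 or 7 (-0.59 to -0.46). The part of the fibroblast markers in these values was not tested.

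In RV PAB-F, library 1 carried the calls of *Figf* (0.92 without it), *Flt4* (0.76) and *Plat* (0.51), and *Csf1r* fell to 0.45 without it and also lost its call without RV PAB-F library 2 or RV Sham-F library 5, 6, 7, 8 or 9, whereas *Fos* passed in all 15 fits. In LV AOB-F, *Plau* and *Ptpn2* passed in all 16 fits with 1 library left out. *Csf1r* (0.76 to 0.81) and *Myc* (0.59 to 0.67) lost their calls without LV AOB-F library 6 or 7, *Figf* without LV AOB-F 1, 2, 4 or 7 or LV Sham-F 2, 6, 7, 8 or 9 (0.77 to 0.81), and *Ptprj* without LV AOB-F 1, 2, 6 or 7 or LV Sham-F 1, 2, 5, 6, 7, 8 or 9 (0.43 to 0.60). These alternatives for pathway genes were chosen after seeing the data.

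Between the ventricles of the shams, the share of these lists that was called lay near that of all genes. In Sham-H 4 of the 64 were higher and 11 lower in the RV, 23.4% against 21% of all genes. In Sham-F 19 were higher and 28 lower, 73.4% against 74.3%, with a median log2 fold change of -0.22 against -0.07 over all genes. Of the proteases, 4 of 4 were lower in the RV of Sham-F, and of the relatives 6 of 11 were lower and 0 higher, where 38.6% of all genes were lower and 35.6% higher. The adaptors and effectors were split, 16 higher and 12 lower of 32. In the LV, 17 of the 64 were higher and 19 lower in Sham-F than in Sham-H, 56.2% against 57.4% of all genes.

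Which genes moved with each member from library to library was described by Pearson's r of the deviations from the group means of log2 CPM over the 82 libraries, ranked over 11953 other genes. These libraries share scaling and come in pairs from 1 animal, so the values are descriptions. *Pdgfb* was most like *Rasip1* (r = 0.94), *Sox13* (0.936) and *Notch3* (0.925), and *Pdgfrb* most like *Notch3* (0.933), *Sipa1* (0.929) and *Pear1* (0.921). *Pdgfra* was most like *Dcn* (0.913), *Thbs2* (0.907) and *Ccdc80* (0.873). For the other ligands the nearest genes were less close, with *Slc41a1* (0.721), *Zbtb7b* (0.714) and *Polrmt* (0.71) for *Pdgfa*, *Gja1* (0.676), *Ehbp1* (0.672) and *Zfpm2* (0.666) for *Pdgfc*, and *Kitlg* (0.61), *Specc1* (0.606) and *Cttnbp2* (0.603) for *Pdgfd*.

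Within the family, *Pdgfb* and its receptor *Pdgfrb* moved together (r = 0.887), the receptors did so less (0.744), and *Pdgfc* went against both *Pdgfb* (-0.549) and *Pdgfrb* (-0.536). Over the marker lists, *Pdgfra* had a median r of 0.821 with 9 tested fibroblast genes, 0.65 with 8 mural and 0.592 with 8 endothelial genes. For *Pdgfb* it was 0.73 with the mural, 0.592 with the fibroblast and 0.578 with the endothelial genes. *Pdgfrb* had one of 0.759 with mural, 0.739 with fibroblast and 0.658 with endothelial genes. *Pdgfc* had a median r of 0.427 with 9 cardiomyocyte genes and of -0.389 and -0.416 with the fibroblast and mural genes, and *Pdgfa* one of 0.237 with the cardiomyocyte genes. The plot of member levels against summed markers shows the same libraries on their original scale.

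**Figure D5:**
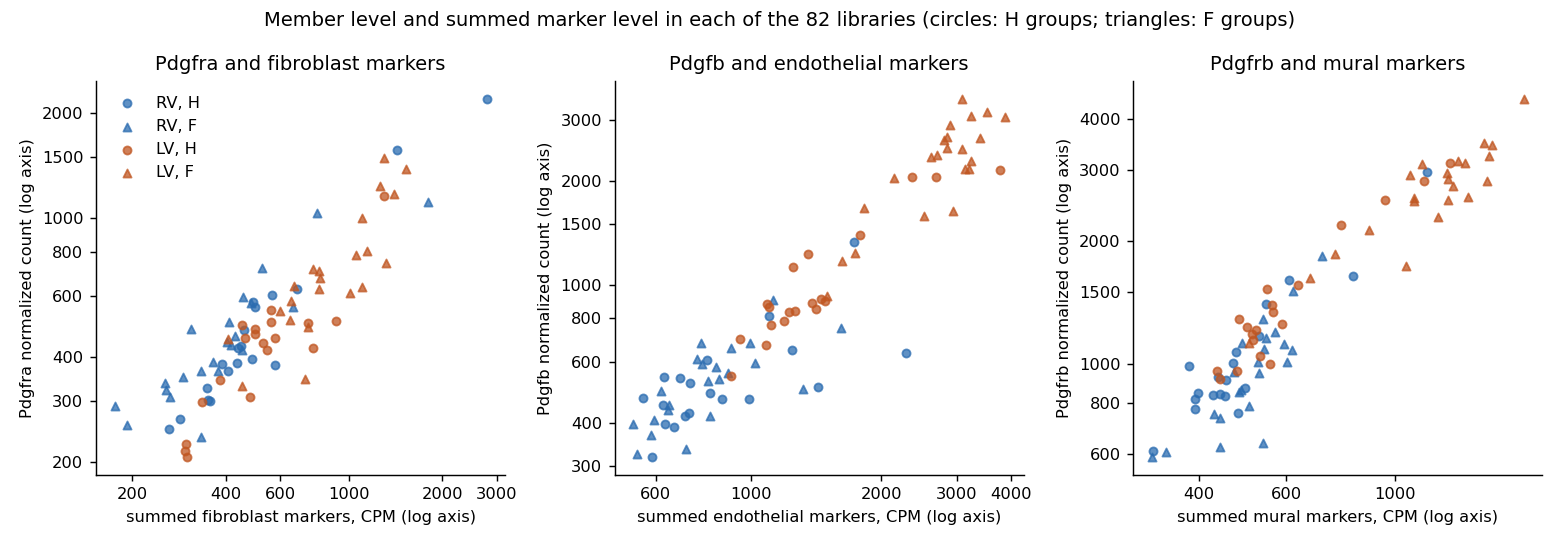
Normalized count of a PDGF gene (vertical log axis) against the summed CPM of a marker list (horizontal log axis) in the 82 libraries, with RV and LV in separate colours, circles for the H stage and triangles for the F stage. *Pdgfra* rises along the fibroblast sum, up to RV PAB-H library 2 at 2196 counts and 2780 CPM.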

How the data were processed

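Cardiomyocyte RNA of 41 rats was sequenced in 82 libraries (12 groups). The raw counts were deposited for 17337 genes. The authors trimmed reads with Trim Galore, aligned them with STAR within nf-core and counted them with featureCounts, without reads that overlap several genes, and use of strand is not given in the sources used here. The deposited normalized counts, a signal value, had been divided by the authors by DESeq2 1.28.1 size factors (0.639 to 1.571). The deposited FPKM values, also made by the authors, served here to set levels per length. The table held 0 columns of other samples.

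Tests used the raw counts in 1 edgeR 4.0.16 quasi-likelihood fit (R 4.3.3) over all libraries, with 12 group means, TMM factors and filterByExpr, which kept 11954 genes. All tests were two-sided, and Benjamini-Hochberg adjustment ran over these genes, with a threshold of 0.05. The common biological coefficient of variation was 0.244. The 6 members were always named. Of the pathway lists, the 10 called genes with the largest change in a loaded ventricle were named. *Fos*, *Egr1* and *Spry2* were added after their values were seen. Members and lists were chosen with earlier results of these data known. Likeness used log2 CPM with a prior count of 2. Functions were tested on simulated data.

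RV and LV libraries were paired by the animal in the labels. Deviations from the group means correlated with a median r of 0.186 to 0.297 per condition for the same animal (lowest -0.141, in PAB-H) and of -0.0686 to -0.0142 for different animals. Alternatives were RLE size factors, no filter, DESeq2 1.42.0, sex as a covariate, a fit of 2 groups, and blocks by replicate number or animal. Each library was also left out in turn, except in the comparison of the sexes. In addition, 3 sets of 2 libraries were left out together, chosen after seeing the data.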

Additional observations from a re-analysis of the deposited data

Results flagged for a closer look

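A library was singled out when it lay far from the others of its group, by Dixon's criterion, which chance alone meets in about 1 in 20 groups. Of 72 combinations of gene and group, 11 held such a library. Several of them are the same few libraries. LV AOB-H library 6 had *Pdgfb* at 2150 (others 767 to 1230), *Pdgfra* at 1160 (others 298 to 504) and *Pdgfrb* at 3110 (others 961 to 1560), with endothelial markers at 3780 CPM. LV PAB-H library 2 had *Pdgfb* at 2050 (others 672 to 899) and *Pdgfrb* at 2530 (others 998 to 1400), with endothelial markers at 2360 CPM. LV PAB-F library 5 was low instead, with *Pdgfb* at 926 (others 2350 to 3090) and *Pdgfrb* at 1120 (others 2850 to 3440), and it also had the lowest endothelial and mural sums of its group, 1500 and 504 CPM. *Pdgfrb* was at 2960 in RV PAB-H library 2 (others 914 to 1640) and at 1610 in RV AOB-H library 6 (others 757 to 875), where endothelial markers were at 2290 CPM. *Pdgfra* was at 722 in RV Sham-F library 3 (others 255 to 461), and *Pdgfd* at 115 in LV AOB-F library 3 (others 36 to 67). The part of the marker sums in these values was not tested.

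The difference between Sham-F and Sham-H, called the age effect above, differed between the ventricles by the test of that difference (edgeR). The log2 difference of RV minus LV was -0.398 for *Pdgfa*, -1.05 for *Pdgfb* and -0.843 for *Pdgfrb*. Age and collection cannot be told apart in it.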

How the results depend on the processing

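Of the counts of members called in 24 comparisons, DESeq2 moved none by over 1.5 times (RV PAB-F went from 2 to 3). For RV PAB-H, with 2 called, the count was 1 with RLE size factors, 1 without the filter, 1 with sex as a covariate and 0 without RV PAB-H libraries 1 and 2 (both left out after seeing the data), and 0 to 3 with single libraries left out. A fit to these groups alone also called 2, losing *Pdgfra* (1.23, adjusted p = 0.0540) and gaining *Pdgfb* (0.71, adjusted p = 0.0404). For RV PAB-F, also 2, it was 1 without the filter, 5 in a fit to these groups alone and 0 to 3 with single libraries left out. Single libraries moved the count from 2 to between 1 and 2 in RV against LV of Sham-H (1 without LV Sham-H libraries 4 and 5, also chosen after seeing the data), from 2 to between 0 and 3 in that of AOB-H, from 0 to between 0 and 1 in LV AOB-F and from 3 to between 1 and 4 for the age difference. The cause of these moves was not tested.

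Values that changed sign were all of results that had not been called. Without the filter, log2 fold changes turned to -0.021 for *Pdgfb* and -0.030 for *Pdgfrb* in LV AOB-H and to 0.011 for *Pdgfd* in RV against LV of Sham-F. Without RV PAB-H libraries 1 and 2, *Pdgfd* in RV PAB-H turned to -0.14 and *Pdgfrb* in RV against LV of PAB-H to -0.31. With single libraries left out, the ranges crossed 0 in LV AOB-H for *Pdgfb* (-0.27 to 0.29) and *Pdgfrb* (-0.29 to 0.26), in LV AOB-F for *Pdgfrb* (-0.039 to 0.22), in RV against LV for *Pdgfd* in Sham-F (-0.16 to 0.072), *Pdgfra* in Sham-H (-0.036 to 0.17) and PAB-F (-0.22 to 0.11) and *Pdgfrb* in PAB-H (-0.17 to 0.39), and for *Pdgfra* with age in the RV (-0.19 to 0.080). Of 1292 member results with a library left out, 51 lost and 14 gained a call, and 0 called values changed sign.

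With the animal as a replicate block, the age difference called 5 members rather than 3, *Pdgfrb* in RV against LV of AOB-H passed, and no other call changed. Equal replicate numbers across conditions are different animals, and their deviations correlated between -0.446 and 0.452. A replicate block by that number gave 1 call in RV PAB-H and 0 in RV PAB-F, and turned *Pdgfb* and *Pdgfrb* in LV AOB-H to -0.039 and -0.040, *Pdgfra* with age in the RV to 0.090 and *Pdgfd* with age in the LV to 0.015. At 18 to 154 raw counts per library, *Pdgfc* and *Pdgfd* rested on the fewest reads of the 6. Of the pathway genes named, none of the 6 called in LV AOB-F passed in a fit to these groups alone, which called 15 genes in all rather than 1541.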
